A study of Lytechinus variegatus with 18 samples.

Results

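Gene models named after cell death regulators were followed in whole embryos of the green sea urchin Lytechinus variegatus after ethanol exposure. They were found by name, with a rule that uses no measured difference but was chosen with earlier results of these data known. The name of the closest match in Strongylocentrotus purpuratus, the purple sea urchin, had to begin, after the prefix Sp-, with Casp, Bcl, Bax, Bak, Bok, Birc, Iap, Xiap, Apaf, Tnfrsf, Tnfsf, Traf, Ripk, Fadd, Aifm or Pdcd. Of 27230 gene models, 54 had such a name, and the 45 of them with a mean of at least 5 counts over the 18 libraries are described here. Names are given below without the prefix. The members just above that minimum were TnfsfL3, with a mean of 7.78 counts, and Apaf1L, with 8.11 counts. Just below it lay Aifm2, with 4.28 counts, and 1 of 3 gene models named Birc2b (L_var_08027), with 3.22 counts.

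Animal cells die in a controlled way along connected routes. In the extrinsic route, ligands of the tumour necrosis factor (TNF) family bind receptors at the cell surface, and these recruit adaptors such as FADD, TRAF proteins and RIP kinases, which lead either to caspases or to NF-kB and stress kinase signalling. In the mitochondrial route, Bcl-2 family proteins such as Bax, Bak and Bok open the outer mitochondrial membrane, and released cytochrome c lets Apaf1 switch on caspases, while inhibitor of apoptosis proteins (IAPs) restrain both routes. Caspases are the proteases that carry out the death of the cell, and in sea urchin embryos programmed cell death also belongs to normal development.

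The study exposed wild-type embryos to ethanol at fertilization and compared them with control embryos at 15, 18 and 21 hours post fertilization (hpf). Each of the 6 groups (ethanol and control at each time) had 3 libraries, numbered as biological replicates 1 to 3, each made from the total RNA of about 150 embryos. The ethanol concentration, the handling of the controls and the parents of each replicate are not given in the sources used here, so p-values measure the spread between these samples, which may be partly technical. Because whole embryos were pooled, fewer cells of a type and less RNA per cell cannot be told apart.

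The label caspases fits these 45 gene models only in part, since no caspase is among them. The 1 member with a name beginning in Casp, Caspr/C-term (L_var_06416), is closest in UniProt to neurexin-4 of the fly, a cell junction protein, and Casp2L stayed below the minimum with a mean of 0.556 counts. Caspases are named Cspe in this annotation, and these 16 gene models are described at the end. Several other names also say little about cell death. Pdcd11 and Pdcd11_1 are closest to RRP5, a factor of ribosomal RNA processing, Birc6 of L_var_13466 is closest to HIF1A, and only the Birc6 of L_var_13469 is closest to BIRC6 itself. The members lie on 48.1 to 93.9% identity to their S. purpuratus hits, with a median of 71.8%. 10 of them carry 5 names shared by pairs (Iap1, Birc6, TnfrsfL1, Tnfrsf_cl1 and Trafd1), so reads may be divided between such copies and their values are uncertain.

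Libraries held 7133636 to 8000894 counts, with 21041 to 24253 gene models detected in each. All 45 members were among the 18674 gene models that passed the filter on low counts. Markers of the embryo's territories (skeletogenic cells, gut, pigment cells, ectoderm and its neural parts) were present in both arms. Of 6 markers of immune-type cells, 5 had counts in every library, and their summed level ran from 30.6 to 243 CPM (counts scaled to library size) in ethanol libraries and from 36.1 to 195 CPM in control libraries. The part of those cells in the results was not tested. Of the other markers, 8 of 9 skeletogenic and 1 of 2 pigment markers had counts in every library, and all gut and ectoderm markers did. Ethanol and control ranges overlapped in every territory. The aboral ectoderm marker ran from 22.3 to 246 CPM in ethanol libraries, against 128 to 307 CPM in control libraries. Pigment markers summed to 3.09e+03 to 9.68e+03 CPM in ethanol libraries, against 2.47e+03 to 6.2e+03 CPM in control libraries. One pair of libraries went against its labels. Ratios of ethanol to control within a same-numbered pair correlated across genes with the mean of the 15 and 18 hpf pairs of the other replicates at 0.532 to 0.739 in 8 of the 9 pairs, but at -0.658 in the pair of replicate 3 at 21 hpf (genes are not independent replicates). Whether the labels of that pair are exchanged was not tested, and every 21 hpf value of replicate 3 is given under its label as deposited. Results that use 21 hpf are therefore given with and without that pair, and the ethanol effect is described first as the average over 15 and 18 hpf, a comparison chosen after this had been seen.

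Averaged over 15 and 18 hpf, genes of the TNF route made up most of the members that were higher in ethanol embryos, and Pdcd-named genes made up most of those that were lower. Without regard to replicate number, 6 of the 45 members passed an adjusted p of 0.05 (edgeR quasi-likelihood test, Benjamini-Hochberg over all 18674 gene models), against 5.16% of all gene models tested. Of these, 5 were higher, namely the TNF ligand TnfsfL4, the TNF receptors TnfrsfL1 (L_var_05689) and Tnfrsf_cl2, the adaptor Traf3 and the Bcl-2 family gene Bokl (background 1.97%), and Pdcd5 was lower (background 3.19%). Same-numbered ethanol and control libraries deviated together at these times. With the replicate number as a block, 16 members passed, 10 higher (background 13.7%) and 6 lower (background 16.2%). The share that was lower is near its background, and single replicates decided much of both counts, as they did over all gene models. Without replicate 1, 0 members passed without the block (background 0%) and 7 with it (background 7.02%). Without replicate 2 the counts were 0 (background 0.196%) and 2 (background 4.13%), and without replicate 3 they were 1 (background 0.635%) and 14 (background 18.3%). When the 21 hpf pair of replicate 3 was left out of the fit, 9 members passed without the block (6 higher, background 5.32%, and 3 lower, background 6.78%) and 28 with it (19 higher, background 19.3%, and 9 lower, background 21.0%).

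**Figure D1:**
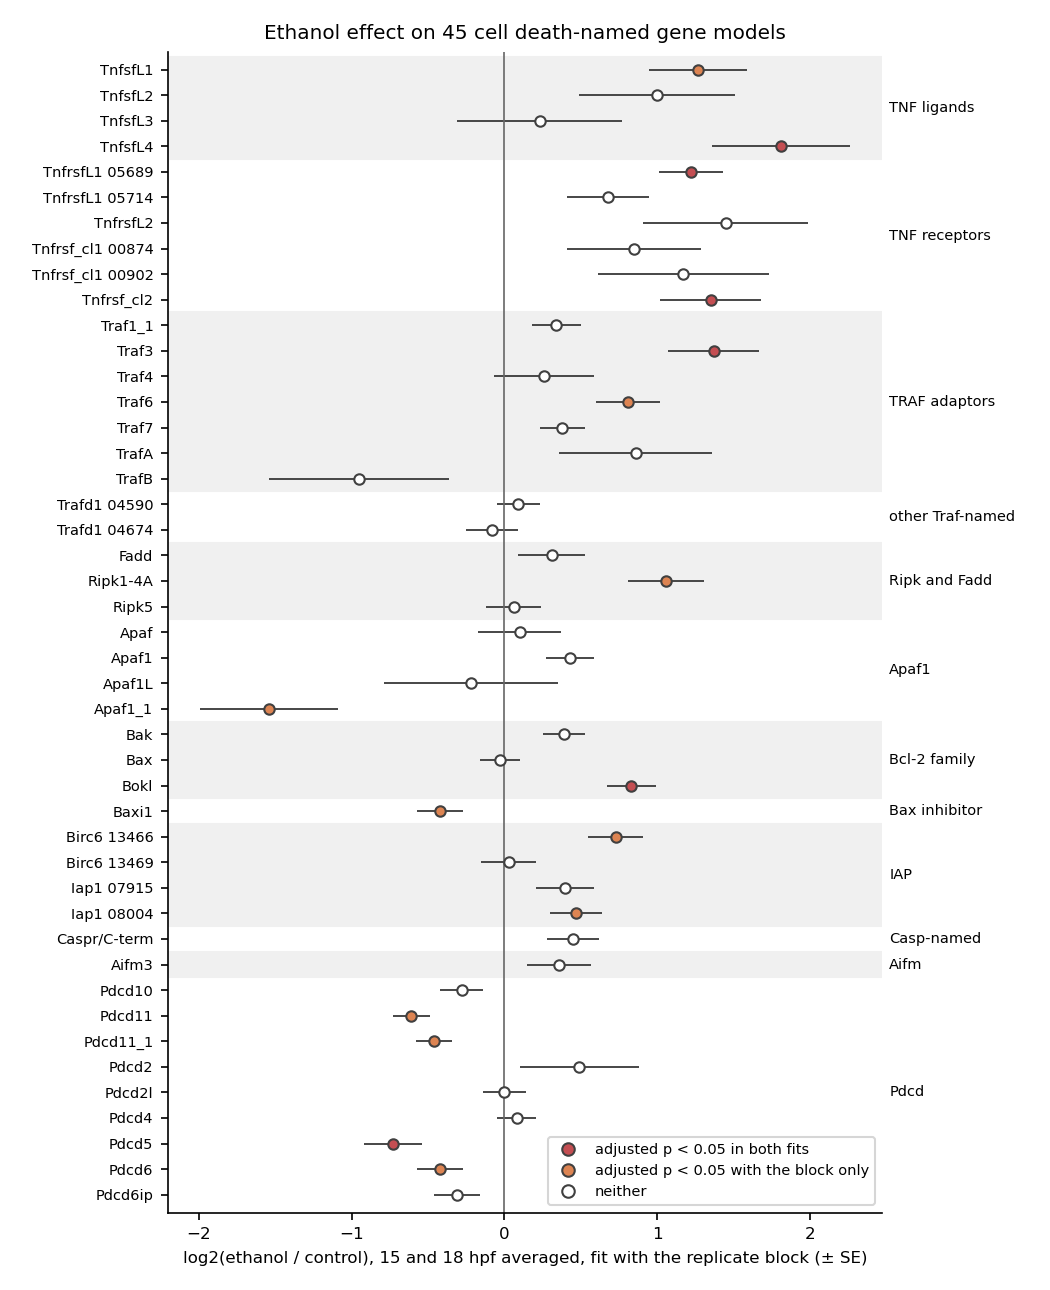
Log2 fold change of ethanol over control embryos, averaged over 15 and 18 hpf, for each of the 45 members (horizontal axis, edgeR fit with the replicate block, bars ± SE), grouped by role from top to bottom. Red points passed an adjusted p of 0.05 with and without the block, orange points with the block only, and white points in neither. The 4 ligands and 6 receptors all lie to the right of 0, and 6 of the 9 Pdcd-named genes lie to the left of it.

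The direction was shared across the ligands, receptors and TRAF adaptors. Their 17 gene models had 16 positive log2 fold changes and a median of 0.89, where the median of all gene models tested was 0.05 and that of all 45 members 0.37. With the block the median of the 17 was 0.86, and 6 of them passed, all higher (background 13.7%). Without the block 4 of them passed, also all higher (background 1.97%). With the 21 hpf pair of replicate 3 left out and no block, 16 of the 17 were positive, against 10297 of 19101 gene models. In the pairs themselves, 14 of the 45 members were higher in ethanol in all 6 pairs at 15 and 18 hpf, against 18.0% of all gene models, and 8 were lower in all 6, against 21.5%, a share near the background.

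**Figure D2:**
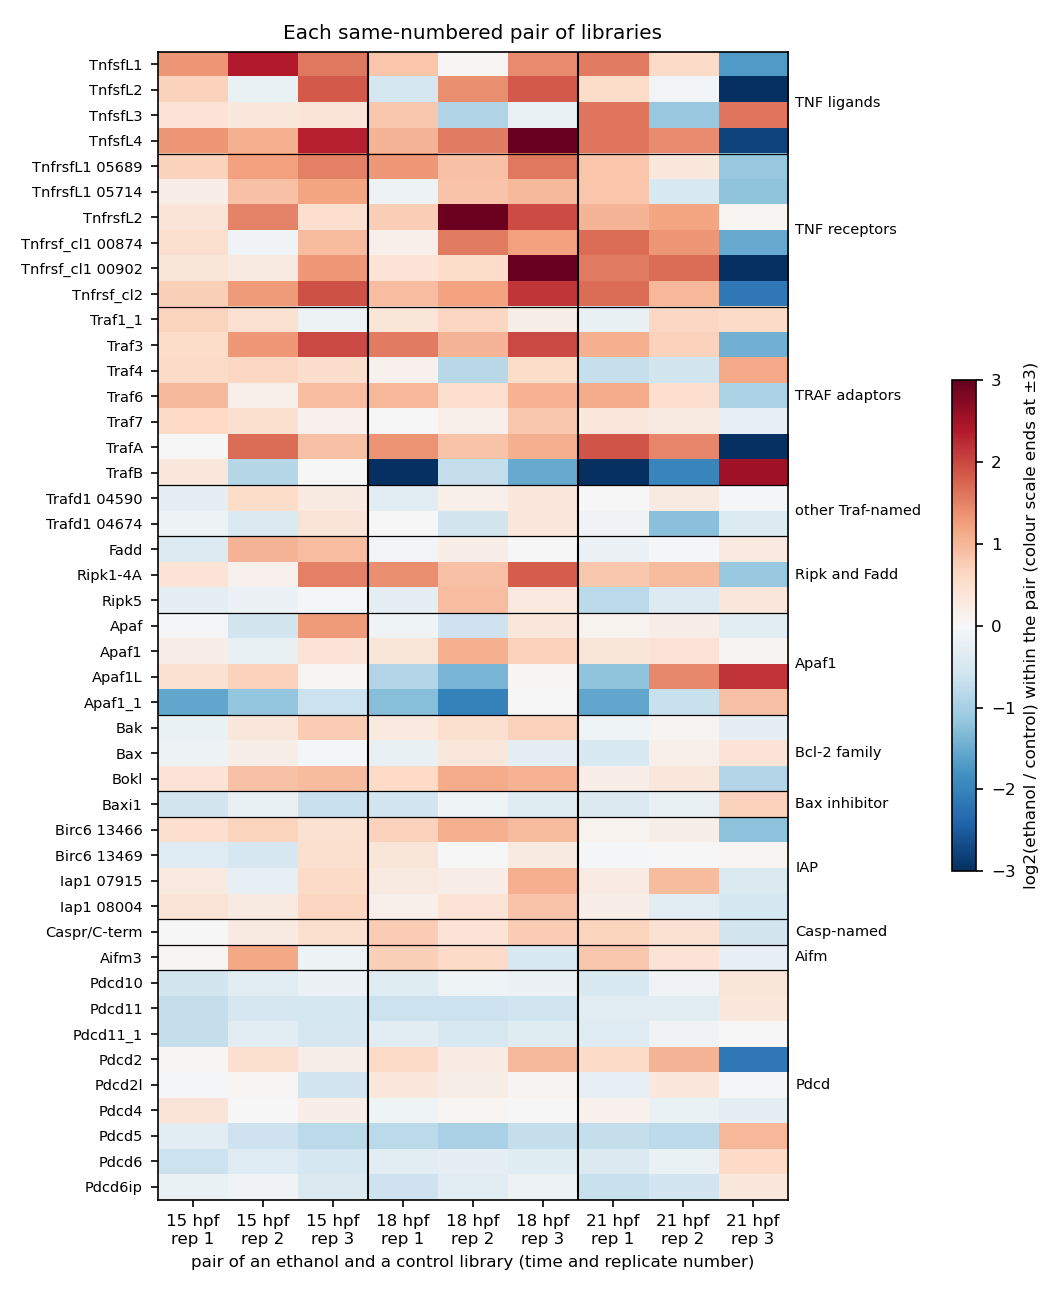
Log2 ratio of ethanol to control within each same-numbered pair of libraries (columns: 15, 18 and 21 hpf, replicates 1 to 3) for each member (rows, by role), red where the ethanol library was higher and blue where it was lower. The ligand and receptor rows are mostly red in the first 8 columns, and in the last one, the pair of replicate 3 at 21 hpf, 18 of the 45 members are red (47.8% of all gene models) and TnfsfL4 has a log2 ratio of -2.78.

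Among the TNF ligands, secreted or membrane-bound proteins that trigger the extrinsic route, TnfsfL4 (L_var_24084, chromosome 16, 11351606 to 11363411) changed most. TnfsfL4, TnfsfL1 and TnfsfL3 have no closest UniProt entry in the annotation, so their ligand names rest on the S. purpuratus hit alone. That hit has 48.14% identity for TnfsfL4, the lowest of the 45 members. TnfsfL4 had 6.76, 6.66 and 19.5 CPM in ethanol embryos at 15 hpf, against 2.57, 3.06 and 3.66 CPM in control embryos. At 18 hpf it had 5.36, 9.38 and 18.9 CPM in ethanol embryos, against 2.53, 3.09 and 2.14 CPM in control embryos. Every ethanol library stood above every control library at both times, and replicate 3 was the highest. Averaged over both times it rose by 1.97 on the log2 scale (SE 0.53, edgeR adjusted p 0.0429; 1.81, SE 0.45, adjusted p 0.0102 with the block). At 21 hpf the values were 7.49, 10.3 and 3.00 CPM in ethanol embryos and 2.30, 3.69 and 22 CPM in control embryos, with the order turned round in replicate 3.

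TnfsfL1 (L_var_24228, chromosome 16, 15635422 to 15645739) was a second ligand. It had 25.5, 8.98 and 7.68 CPM in ethanol embryos at 15 hpf, against 10, 1.53 and 2.39 CPM in control embryos. The 18 hpf values were 19.2, 3.48 and 4.33 CPM in ethanol embryos, against 10.7, 3.41 and 1.47 CPM in control embryos. The groups overlapped at both times, with replicate 1 high in both arms, yet ethanol was higher in all 6 pairs, by almost nothing in replicate 2 at 18 hpf. It passed with the block (log2 fold change 1.27, SE 0.32, adjusted p 0.0102) and not without it (1.19, SE 0.69, adjusted p 0.261). Its neighbour TnfsfL2 (L_var_24229, chromosome 16, 15679833 to 15691947), closest to the fly TNF ligand Eiger, had a log2 fold change of 1.15 (SE 0.70, adjusted p 0.283), and TnfsfL3 one of 0.21 (SE 0.64, adjusted p 0.849). Neither passed with the block, where the adjusted p was 0.139 for TnfsfL2 and 0.772 for TnfsfL3.

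The receptors carry the ligand signal into the cell. Tnfrsf_cl2 (L_var_01257, chromosome 1, 42889139 to 42895184) is closest to human TNR16, the p75 neurotrophin receptor. It had 92.0, 98.5 and 163 CPM in ethanol embryos at 15 hpf, against 56.3, 40.3 and 43.8 CPM in control embryos. At 18 hpf the libraries held 77.1, 78.4 and 145 CPM in ethanol embryos, against 40.6, 33.6 and 32.7 CPM in control embryos. The groups did not overlap at either time, and it rose by 1.41 on the log2 scale (SE 0.36, edgeR adjusted p 0.0393; 1.35, SE 0.33, adjusted p 0.0101 with the block).

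TnfrsfL1 of L_var_05689 (chromosome 3, 1511108 to 1550369), closest to the mouse death receptor TR10B, had the smallest SE of the 6 receptors. It had 15.0, 13.6 and 11.7 CPM in ethanol embryos at 15 hpf, against 9.11, 5.62 and 3.94 CPM in control embryos. In the 18 hpf libraries it had 14, 11.4 and 10.6 CPM in ethanol embryos, against 5.59, 6.01 and 3.35 CPM in control embryos. No ethanol library overlapped with a control library, and it rose by 1.19 (SE 0.27, edgeR adjusted p 0.0279; 1.22, SE 0.21, adjusted p 0.00329 with the block). With the block it was 1 of the 2 members, beside Ripk1-4A, that still passed without replicate 2. The second TnfrsfL1 (L_var_05714) had a log2 fold change of 0.78 (SE 0.50, adjusted p 0.311), and the 3 receptors of low count, TnfrsfL2 and both Tnfrsf_cl1 copies, had values from 0.88 to 1.27. None of these 4 passed in either fit, and with the block their adjusted p ran from 0.0547 for TnfrsfL2 to 0.152 for Tnfrsf_cl1 of L_var_00874.

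TRAF adaptors bind the receptor tails and were less uniform. Traf3, which in mammals holds back alternative NF-kB signalling, had 19.4, 11.6 and 30.9 CPM in ethanol embryos at 15 hpf, against 13.2, 4.59 and 7.60 CPM in control embryos. At 18 hpf it had 20, 16.7 and 40.6 CPM in ethanol embryos, against 6.66, 8.13 and 10.2 CPM in control embryos. The groups overlapped at 15 hpf, where the ethanol library of replicate 2 fell below the control of replicate 1, and were apart at 18 hpf. Traf3 rose by 1.46 on the log2 scale (SE 0.39, edgeR adjusted p 0.0442; 1.37, SE 0.30, adjusted p 0.00656 with the block).

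Traf6, which in mammals serves Toll and interleukin-1 receptors as well, had 22.7, 8.36 and 22.4 CPM in ethanol embryos at 15 hpf, against 11.4, 7.49 and 11.7 CPM in control embryos. The 18 hpf values were 21.7, 10 and 26.4 CPM in ethanol embryos, against 10.8, 6.99 and 12.7 CPM in control embryos. Replicate 2 was low in both arms and the groups overlapped, and Traf6 passed only with the block (0.81, SE 0.21, adjusted p 0.0117; 0.87, SE 0.34, adjusted p 0.114 without it). Traf1_1, Traf4, Traf7 and TrafA had log2 fold changes from 0.25 to 0.89, and none of them passed in either fit. The Trafd1 pair, named after a TRAF-type zinc finger protein that is no TRAF adaptor, had 0.06 (SE 0.24) and -0.19 (SE 0.38), with adjusted p-values of 0.891 and 0.765.

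TrafB (L_var_04863, chromosome 2, 64727168 to 64747488), closest to TRAF4, was the adaptor with a negative value. At 15 hpf its level was 2.66, 1.86 and 4.34 CPM in ethanol embryos and 2.05, 3.57 and 4.36 CPM in control embryos, with full overlap. At 18 hpf it was 1.03, 6.83 and 2.64 CPM in ethanol embryos, below 13.7, 11.4 and 8.03 CPM in control embryos in every library. At 21 hpf it was 4.33, 10.9 and 38.0 CPM in ethanol embryos, against 45.5, 43.9 and 6.28 CPM in control embryos, where replicate 3 alone was higher in ethanol. The 18 hpf difference did not pass (log2 fold change -1.67, SE 0.79, adjusted p 0.304; -1.79, SE 0.79, adjusted p 0.136 with the block), and nor did the average over 15 and 18 hpf (-0.91, SE 0.57, adjusted p 0.299; -0.95, SE 0.59, adjusted p 0.220 with the block). With the 21 hpf pair of replicate 3 left out, the block fit gave TrafB -0.95 (SE 0.34, adjusted p 0.0345) for that average.

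Of the Ripk-named kinases and Fadd, Ripk1-4A (L_var_04100, closest to RIPK4) differed. It had 18.4, 9.91 and 35.4 CPM in ethanol embryos at 15 hpf, against 13.9, 9.02 and 12.4 CPM in control embryos. At 18 hpf the libraries held 22.7, 16.5 and 34.4 CPM in ethanol embryos, against 8.52, 8.78 and 9.64 CPM in control embryos. The groups were apart at 18 hpf only, and the average passed with the block (1.06, SE 0.25, adjusted p 0.00857) and just missed the threshold without it (1.15, SE 0.33, adjusted p 0.0533). Fadd, the adaptor that recruits initiator caspases, had 0.30 (SE 0.23, adjusted p 0.404), and Ripk5, closest to the dusty kinase, had 0.02 (SE 0.26, adjusted p 0.977).

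**Figure D3:**
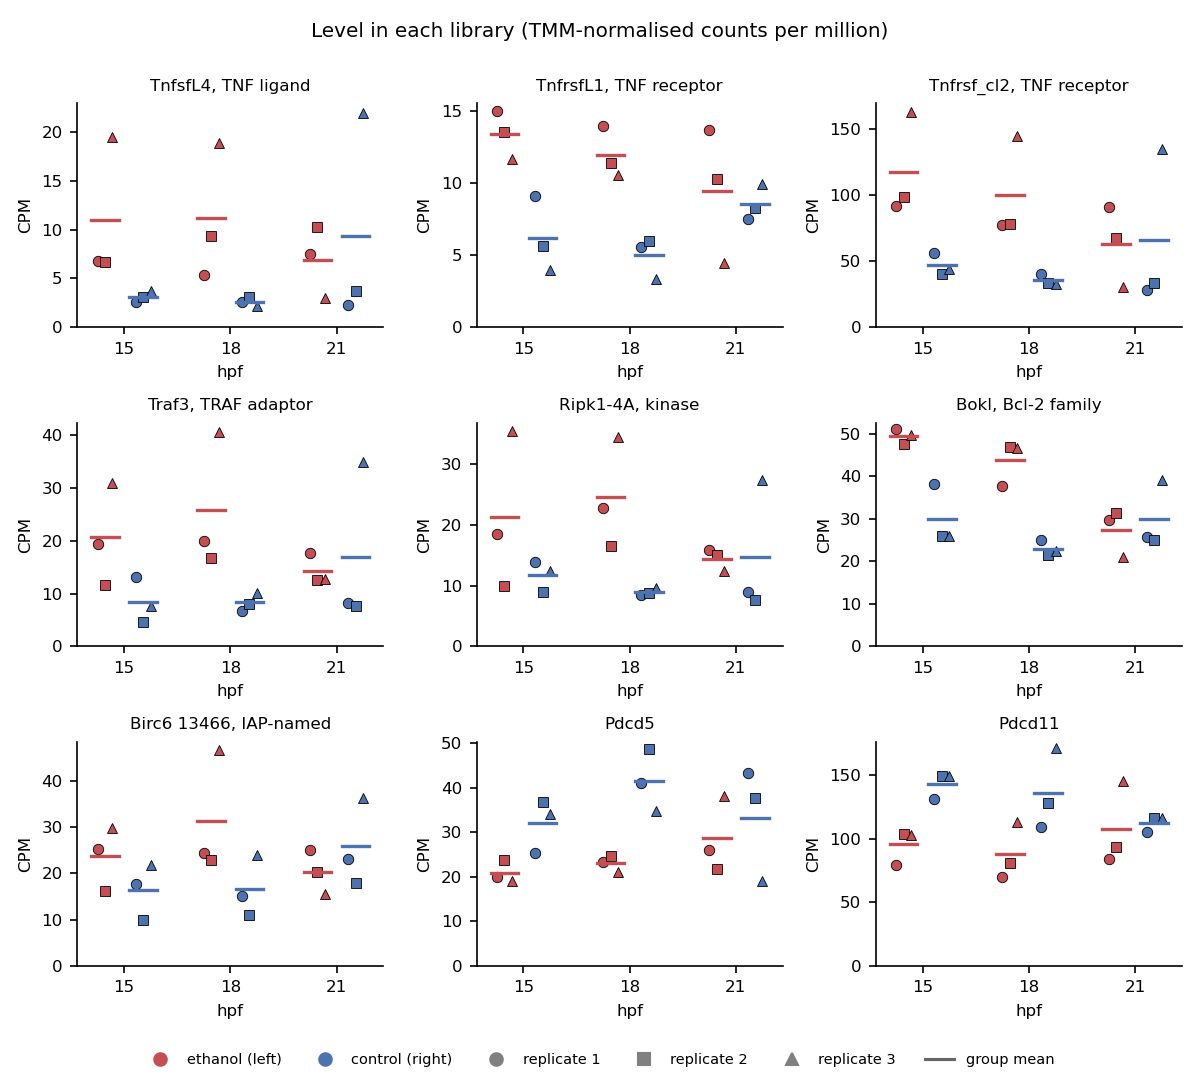
Level in every library (vertical axis, TMM-normalised CPM, from 0) at 15, 18 and 21 hpf for 9 members, with ethanol libraries in red left of control libraries in blue, a symbol for each replicate number and a bar at the group mean. TnfrsfL1 is the copy of L_var_05689. Red stands above blue for the ligand, the receptors and Bokl at 15 and 18 hpf, and the triangles of replicate 3 change places at 21 hpf in all 9 panels.

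In the mitochondrial route 1 of the 3 Bcl-2 family genes, Bokl, passed. Bokl (L_var_23880, chromosome 16, 5014441 to 5023240), related to the pro-apoptotic Bok, had 51.1, 47.6 and 49.7 CPM in ethanol embryos at 15 hpf, against 38.1, 25.9 and 25.9 CPM in control embryos. In the 18 hpf libraries it had 37.7, 46.8 and 46.7 CPM in ethanol embryos, against 24.9, 21.5 and 22.5 CPM in control embryos. There was no overlap at either time, and Bokl rose by 0.83 on the log2 scale (SE 0.16, edgeR adjusted p 0.0196; 0.83, SE 0.16, adjusted p 0.00448 with the block). Bax, one of the pore formers, had -0.03 (SE 0.15, adjusted p 0.926). Bak, the other pore former, had 0.37 (SE 0.19, adjusted p 0.212) and reached an adjusted p of 0.050 with the block, on the threshold. Baxi1, the endoplasmic reticulum protein Bax inhibitor 1, was lower in ethanol in all 6 pairs. It had 60.4, 113 and 64.9 CPM in ethanol embryos at 15 hpf, against 89.4, 132 and 103 CPM in control embryos, and the groups overlapped. It fell by 0.42 with the block (SE 0.15, adjusted p 0.0477) and did not pass without it (-0.40, SE 0.21, adjusted p 0.220).

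Apaf1 proteins form the scaffold on which initiator caspases are activated. The annotation has 4 gene models with such names, and Apaf1_1 (L_var_14343, chromosome 7, 44146306 to 44150466) lies next to Apaf1L. Apaf1_1 had 0.222, 0.465 and 0.445 CPM in ethanol embryos at 15 hpf, against 1.15, 1.36 and 0.845 CPM in control embryos. At 18 hpf it had 0.456, 0.804 and 0.528 CPM in ethanol embryos, against 1.46, 4.06 and 0.535 CPM in control embryos. It was lower in all 6 pairs, by almost nothing in replicate 3 at 18 hpf, and at 25 counts or fewer per library these values are coarse. It fell by 1.54 with the block (SE 0.45, adjusted p 0.0203) and did not pass without it (-1.63, SE 0.51, adjusted p 0.0657). Its neighbour Apaf1L was higher in ethanol in 4 of the 6 pairs, with log2 ratios of 0.45, 0.70 and 0.05 at 15 hpf. Apaf was higher in 2 of the 6 pairs, and neither passed in either fit. Apaf1 (L_var_16530), which lies near Bax on chromosome 9, had 0.41 (SE 0.24, adjusted p 0.261; 0.0574 with the block).

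The IAP-named genes had 4 positive values with a median of 0.49. IAPs bind and restrain caspases, but the gene model L_var_13466 is closest to HIF1A and not to an IAP. Birc6 of L_var_13466 had 25.2, 16.1 and 29.9 CPM in ethanol embryos at 15 hpf, against 17.6, 10 and 21.8 CPM in control embryos. The 18 hpf values were 24.4, 22.9 and 46.6 CPM in ethanol embryos, against 15.2, 10.9 and 24.0 CPM in control embryos. The arms overlapped, with replicate 3 high in both, and the gene model passed only with the block (0.73, SE 0.18, adjusted p 0.0108; 0.72, SE 0.28, adjusted p 0.110 without it). Its namesake L_var_13469, the one closest to BIRC6, had 0.06 (SE 0.23, adjusted p 0.875). Iap1 of L_var_08004, closest to XIAP, had 12.3, 13.2 and 18.7 CPM in ethanol embryos at 15 hpf, all above 9.36, 10.9 and 11.8 CPM in control embryos. It likewise passed only with the block (0.47, SE 0.17, adjusted p 0.0486; 0.49, SE 0.20, adjusted p 0.128 without it). The further IAP names, Birc2b and Birc2c with 3 gene models each, were all below the count minimum.

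The Pdcd-named genes leaned to lower levels in ethanol embryos, with 7 of 9 negative and a median of -0.29. Pdcd5, a small nuclear protein linked to apoptosis in mammals, had 20, 23.7 and 19.1 CPM in ethanol embryos at 15 hpf, against 25.4, 36.8 and 34.1 CPM in control embryos. At 18 hpf the libraries held 23.3, 24.7 and 21.1 CPM in ethanol embryos, against 41.1, 48.8 and 34.7 CPM in control embryos. All ethanol libraries lay below all controls at both times, and Pdcd5 fell by 0.73 (SE 0.20, edgeR adjusted p 0.0469; SE 0.19, adjusted p 0.0129 with the block).

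The 2 gene models of the ribosomal RNA processing factor RRP5 lie close together on chromosome 12. Pdcd11 (L_var_20156, 28777635 to 28808055) had 79.3, 104 and 103 CPM in ethanol embryos at 15 hpf, against 131, 149 and 149 CPM in control embryos, without overlap. In the 18 hpf libraries it had 70.0, 81.2 and 113 CPM in ethanol embryos, against 109, 128 and 171 CPM in control embryos, where replicate 3 was high in both arms. It fell by 0.61 with the block (SE 0.12, adjusted p 0.00555) and came near the threshold without it (-0.60, SE 0.18, adjusted p 0.0557). Pdcd11_1 (L_var_20150, 28701024 to 28739644) fell by 0.46 with the block (SE 0.12, adjusted p 0.0139; 0.144 without it) and was lower in ethanol in all 9 pairs. Pdcd6, the calcium-binding protein ALG-2, fell by 0.42 with the block (SE 0.15, adjusted p 0.0496; 0.170 without it). The remaining Pdcd names, Pdcd2, Pdcd2l, Pdcd4, Pdcd6ip and Pdcd10, passed in neither fit. Outside these groups, Aifm3, related to apoptosis-inducing factor, had 0.46 (SE 0.31, adjusted p 0.338), and Caspr/C-term had 0.46 (SE 0.22, adjusted p 0.184; 0.0516 with the block).

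Taken time by time, the tests on all libraries called few members, and more once the reversed 21 hpf pair was left out of the fit. At 15 hpf 0 members passed in either fit, where 0.0589% of all gene models passed without the block and 0.477% with it, and 7 members without (background 10.9%) and 13 with the block (background 23.2%) had an unadjusted p under 0.05. Leaving that pair out of the fit with the block gave 11 members past the adjusted threshold at 15 hpf (background 15.4%). DESeq2 on all libraries called 0 members without the block (background 0.978%) and 5 with it (background 6.26%), Bokl, TnfrsfL1, TnfsfL1, Pdcd11 and Pdcd11_1. All 3 ethanol libraries lay above all 3 controls for 5 members (background 6.68%) and below them for 4 (background 7.48%). At 18 hpf 0 members passed without the block (11 had an unadjusted p under 0.05, background 16.4%; DESeq2 called 1, background 1.78%), as did 0% of all gene models. With the block, where 4.07% of all gene models passed, 4 members rose (background 1.46%): TnfrsfL1 of L_var_05689 by 1.29 (SE 0.30, adjusted p 0.0454), Bokl by 0.94 (SE 0.22, adjusted p 0.0454), Ripk1-4A by 1.38 (SE 0.35, adjusted p 0.0482) and Traf3 by 1.54 (SE 0.42, adjusted p 0.0491). Those 4 depended on the replicates used, since with the block 0 members passed without replicate 1 (background 0%) or without replicate 2 (background 0.00531%), and 8 without replicate 3 (background 6.13%). With the reversed 21 hpf pair left out, 3 members passed without the block (background 1.65%) and 16 with it (background 26.9%). At 18 hpf 8 members had all ethanol libraries above all controls (background 13.5%) and 2 had them below (background 13.8%).

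At 21 hpf the members showed no shared direction under the deposited labels. No member passed in either fit (0% of all gene models; without the block 0 members had an unadjusted p under 0.05, background 0.685%, and with it 1, background 2.16%; 0 by DESeq2 in both), 18 log2 fold changes were positive and 27 negative, and the median was -0.06. In no member were the ethanol libraries all above or all below the controls, which held for 1.03% and 1.27% of all gene models. With the pair of replicate 3 left out, 25 were positive and 20 negative, and the 17 genes of the TNF route had a median of 0.90, where that of all gene models tested was 0.02. Without the block 0 members passed then (background 0.0628%), and with it 4 were higher (background 4.64%) and 2 lower (background 6.03%). The higher ones were Tnfrsf_cl2 at 1.34 (adjusted p 0.0085), TnfsfL4 at 1.57 (adjusted p 0.0244), TnfsfL1 at 1.22 (adjusted p 0.0319) and Traf6 at 0.84 (adjusted p 0.0396). The lower ones were TrafB at -2.65 (adjusted p 0.00397) and Pdcd5 at -0.76 (adjusted p 0.0309).

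Averaged over all 3 times under the deposited labels, 0 members passed (background 0.530%; 12 at an unadjusted p under 0.05, background 23.0%). With the block 12 passed, 8 higher (background 8.95%) and 4 lower (background 12.2%), although the reversed pair is in that fit. DESeq2 without the block called 5 (background 7.80%). Leaving out the 21 hpf pair of replicate 3 gave 13 members, 9 higher (background 8.47%) and 4 lower (background 9.86%), and leaving out all libraries of replicate 3 gave 6 (background 5.79%). A dependence of the ethanol effect on time passed for 0 members and 0% of all gene models, with and without the block. Bokl and TnfsfL4 had an unadjusted p under 0.05 without the block (2 members, background 2.21%) and 4 members had one with it (background 6.46%). DESeq2 called 0 members without the block (background 0.0762%) and 0 with it (background 0.338%). All of these tests hold the reversed 21 hpf pair of replicate 3, whose log2 ratio was -0.88 for Bokl and -2.78 for TnfsfL4. With that pair left out, the edgeR test with the block called 0 members.

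Between 15 and 21 hpf few of these genes changed within an arm. In control embryos 1 member passed (background 3.88%) and with the block 2 did (background 13.3%), shares at or below the background. TrafB rose by 3.26 on the log2 scale at 21 hpf against 15 hpf (SE 0.82, edgeR adjusted p 0.0361; 3.36, SE 0.81, adjusted p 0.0128 with the block). In replicates 1 and 2 it stood at 45.5 and 43.9 CPM at 21 hpf, against 2.05 and 3.57 CPM at 15 hpf, while replicate 3 had 6.28 and 4.36 CPM. With the 21 hpf pair of replicate 3 left out, TrafB rose by 3.75 (SE 0.60, adjusted p 0.00324). In ethanol embryos its change was 2.56 (SE 0.81, adjusted p 0.0971; 0.0547 with the block), and 1.35 (adjusted p 0.333) without that pair. The test of dependence on time gave TrafB an adjusted p of 1.0 (0.813 with the block), so a difference between the arms was not shown. Both values come from fits that hold that pair. Its log2 ratio of ethanol to control was 2.55 for TrafB, against -3.31 and -1.98 in replicates 1 and 2 at 21 hpf. With the pair left out, TrafB did not pass the test with the block either.

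Pdcd6ip, the ESCRT-associated protein Alix, rose in control embryos with the block by 0.72 (SE 0.21, adjusted p 0.0326; 0.271 without it), with 88.7, 111 and 63.5 CPM at 21 hpf, against 36.3, 69.3 and 59.6 CPM at 15 hpf. In ethanol embryos its change of 0.63 with the block did not pass (adjusted p 0.0606). In ethanol embryos 1 member passed in either fit, against 3.75% of all gene models without the block and 12% with it, so the members lie below the background. For lower levels alone the background was 0.776% without and 3.97% with the block. The member was Bokl, which fell by 0.85 (SE 0.23, adjusted p 0.0489; SE 0.22, adjusted p 0.0182 with the block), with 29.6, 31.4 and 21.1 CPM at 21 hpf, all below 51.1, 47.6 and 49.7 CPM at 15 hpf. Without the 21 hpf pair of replicate 3 its change was -0.70 (adjusted p 0.121; -0.71, adjusted p 0.0244 with the block). In control embryos Bokl had a log2 fold change of -0.00 (adjusted p 0.997) with that pair in the fit. It had 25.7, 24.9 and 39 CPM at 21 hpf, against 38.1, 25.9 and 25.9 CPM at 15 hpf, and only replicate 3 rose. Leaving out that pair gave 6 members in control embryos with the block, TrafB, Traf4, Pdcd6ip and Birc6 of L_var_13466 higher (background 10.2%) and TrafA and Aifm3 lower (background 8.26%). Of these TrafB and Traf4 also passed without it (background 3.52%). The counts were 0 in both arms and both fits without replicate 1 or without replicate 2, and in ethanol embryos also without replicate 3. Over all gene models, 0% passed in control embryos without the block in those fits, and 3.82% and 2.09% with it. For ethanol embryos the shares were 0.296 to 2.70% without the block and 4.07 to 7.23% with it.

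**Figure D4:**
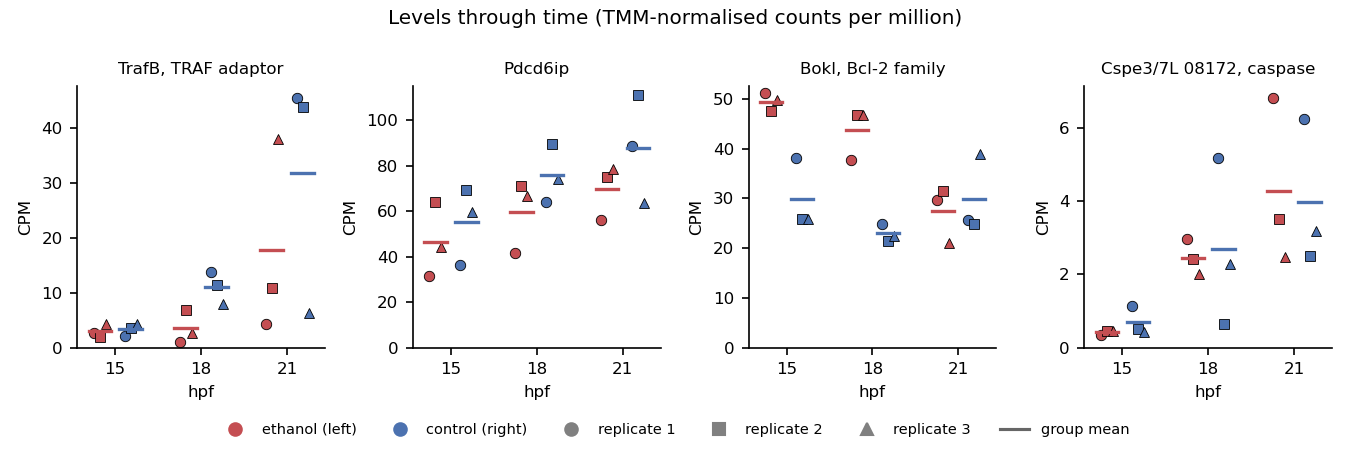
Level in every library (vertical axis, TMM-normalised CPM, from 0) at 15, 18 and 21 hpf for TrafB, Pdcd6ip, Bokl and 1 Cspe3/7L gene model (L_var_08172), with ethanol in red left of control in blue, a symbol for each replicate number and a bar at the group mean. TrafB stands at 45.5 and 43.9 CPM in control replicates 1 and 2 at 21 hpf, and Cspe3/7L is higher at 21 hpf than at 15 hpf in every replicate of both arms.

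The gene models with names beginning in Cspe, the caspase name of this annotation, were added after the annotation had been read. Of 16 gene models 15 were tested, and their ethanol effects averaged over 15 and 18 hpf had a median of 0.20, with 11 positive and 4 negative. In edgeR 0 passed without the block (3 had an unadjusted p under 0.05, 2 higher and 1 lower, where 28.3% of all gene models did), and with it 4 were higher (background 13.7%) and 1 lower (background 16.2%). The higher ones were 2 of the gene models named Cspe8L4 (2.69, adjusted p 0.0054 for L_var_21328; 0.58, adjusted p 0.0453 for L_var_02213, closest to caspase-3), CspeN1b, closest to caspase-7 (1.17, adjusted p 0.0109), and CspeN4 of L_var_02755 (0.97, adjusted p 0.0382). The lower one, CspeN5 (-0.46, adjusted p 0.0239), is closest to MFHAS1, which is no caspase. Cspe8L4 of L_var_21328 was nearly silent in replicate 3 of both arms. It had 3.88, 6.66 and 0 CPM in ethanol embryos at 15 hpf, against 0.128, 0.681 and 0 CPM in control embryos. CspeN1b had 16.4, 5.27 and 18.8 CPM in ethanol embryos at 15 hpf, against 9.49, 3.06 and 5.35 CPM in control embryos, with overlap.

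With age, both gene models named Cspe3/7L, which resemble the executioner caspases that cut cellular proteins, went up in ethanol embryos. L_var_08172 passed in control embryos as well. They are 2 of the 15 tested. Without the block 3.75% of all gene models passed between 15 and 21 hpf in ethanol embryos and 3.88% in control embryos. Levels of L_var_08172 in ethanol embryos at 15 hpf, 0.333 to 0.465 CPM, are low, so the size of its rise is coarse. L_var_08172 had 6.83, 3.52 and 2.48 CPM in ethanol embryos at 21 hpf, against 0.333, 0.465 and 0.445 CPM at 15 hpf, a rise of 3.33 (SE 0.70, edgeR adjusted p 0.0126; 3.60, adjusted p 0.0172 with the 21 hpf pair of replicate 3 left out). Control embryos had 6.26, 2.51 and 3.20 CPM at 21 hpf, against 1.15, 0.511 and 0.422 CPM at 15 hpf, a rise of 2.47 (SE 0.67, adjusted p 0.0494; 2.61, adjusted p 0.0484 without that pair). The times did not overlap in either arm. L_var_08046 rose by 3.54 in ethanol embryos (SE 0.75, adjusted p 0.0133; 3.68, adjusted p 0.0265 without that pair) and had 1.5 in control embryos (SE 0.67, adjusted p 0.254). Ethanol against control gave neither an adjusted p under 0.05 at 15, 18 or 21 hpf.

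Among Bcl-2 relatives and apoptosis-inducing factor under other names, 7 were tested and 0 passed without the block in edgeR (4 had an unadjusted p under 0.05, 3 higher and 1 lower, against the 28.3% of all gene models). With it, where 13.7% of all gene models were higher and 16.2% lower, Bpr, closest to Bax (0.71, adjusted p 0.0203), Diva (0.64, adjusted p 0.0361) and Mcl, closest to an anti-apoptotic Bcl-2 protein (0.38, adjusted p 0.0286), were higher, and Aif of L_var_00413 (-0.80, adjusted p 0.0254) was lower.

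The wider pathways around these genes were read from lists chosen by name. Of 24 NF-kB and Toll adaptor genes, some of which act upstream of TRAF proteins (Myd88 and Irak names) and some downstream, 18 were positive and 6 negative over 15 and 18 hpf, with a median of 0.40. Without the block 1 of them passed (background 5.16%), IrakL, a receptor-associated kinase, which rose by 1.04 (SE 0.26, edgeR adjusted p 0.0361). With the block 8 rose (background 13.7%), among them Nfkb itself (0.49, adjusted p 0.0401), Rel (0.41, adjusted p 0.0419), IkB, the inhibitor that holds NF-kB in the cytoplasm (0.60, adjusted p 0.0279), and Tab2/3 of L_var_09780 (0.74, adjusted p 0.0218). Its namesake L_var_09667 did not pass with the block (0.36, adjusted p 0.151). The 3 that fell with the block, a share near the 16.2% of all gene models, all carry Myd88 names. They were both Myd88L1 copies (-0.83, adjusted p 0.00874; -0.85, adjusted p 0.0194) and 1 Myd88L2 copy (-0.70, adjusted p 0.0167), while another Myd88L2 copy rose (0.76, adjusted p 0.0454).

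The other lists had medians nearer to that of all gene models, and the same shares of all gene models apply to their counts. Of 24 genes with DNA damage and p53 names, a match by letters that also took in AtrnL1, named after attractin, 15 were positive and 9 negative, with a median of 0.05, and Parp4L rose (1.33, SE 0.31, adjusted p 0.0301) while Mdm1, which is not the p53 regulator Mdm2, fell (-0.56, SE 0.15, adjusted p 0.0433). With the block Parp16 rose as well (0.46, adjusted p 0.0147). Of 18 autophagy genes 12 were positive and 6 negative, with a median of 0.19. The protease gene Atg4hb rose (0.52, SE 0.13, adjusted p 0.0363), and with the block so did the kinase gene Ulk1 (0.92, adjusted p 0.00583), while Ulk4 fell (-0.60, adjusted p 0.00903). Of 8 genes of execution and mitochondrial release 4 were positive and 4 negative, with a median of 0.08 and 0 passing without the block (1 at an unadjusted p under 0.05 in each direction). With it Endogl1, related to the nuclease endonuclease G, rose (0.48, adjusted p 0.0194), and Acin1l (-0.55, adjusted p 0.00964) and the mitochondrial channel gene Vdac2_1 (-0.57, adjusted p 0.0474) fell.

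**Figure D5:**
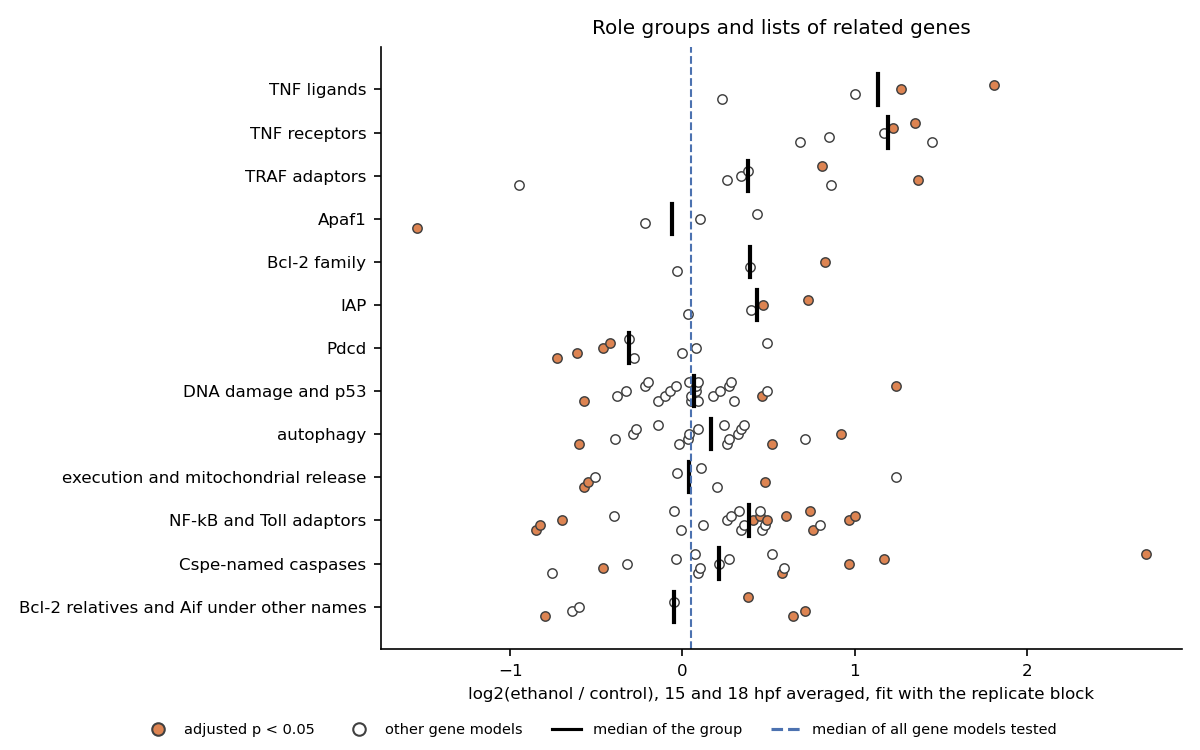
Log2 fold change of ethanol over control embryos, averaged over 15 and 18 hpf in the fit with the replicate block (horizontal axis), for role groups of the members and for the lists of related genes (rows). Points are gene models, orange where the adjusted p was under 0.05, black bars are medians of a row, and the dashed line is the median of all gene models tested. The rows of TNF ligands and receptors lie furthest to the right, with medians of 1.14 and 1.19.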

How the data were processed

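Total RNA of whole Lytechinus variegatus embryos was sequenced in 18 libraries, per the labels. The authors deposited raw counts, whole numbers of reads for each gene model, in 1 column per library. The submitters' processing notes name fastp, STAR and featureCounts. Their versions, the genome build and the strand setting are not given in the sources used here, so antisense or overlapping genes cannot be told apart. The deposited annotation gives positions, the best S. purpuratus hit with its percent identity, per the file headers, and the closest UniProt entry. Coordinates are printed as it gives them. Biological replicates 1, 2 and 3 of the labels were read from the letters A, B and C of the deposited sample sheet. All count columns had a sample (0 without).

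These counts went unchanged into edgeR 4.0.16 (R 4.3.3). The function filterByExpr removed low gene models (minimum count 10, minimum total 15), and TMM scaled the library sizes. One quasi-likelihood fit, with a mean for each of the 6 groups, covered all libraries and all remaining gene models, with two-sided tests, Benjamini-Hochberg adjustment within each comparison and a threshold of 0.05. No design of the authors is stated, so the fit without the replicate number stands first and one with it as a block beside it. The SE is the size of the log2 fold change divided by the square root of F, an approximation. Levels are TMM-normalised CPM, and log2 ratios within pairs use a prior count of 2. The fits were tested on simulated data. Alternatives were DESeq2 1.42.0 (shares of calls over gene models with an adjusted p), other size factors, no filter and leaving out replicates.

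Whether replicate numbers pair the libraries was checked on their deviations from group means, correlated over genes. The correlation was 0.6 to 0.742 for the 6 ethanol and control pairs at 15 and 18 hpf and 0.223 to 0.611 between 15 and 21 hpf within an arm, but 0.156, 0.402 and -0.222 at 21 hpf. The block is therefore given beside the comparisons within 15 and 18 hpf and between times. At 21 hpf the pair of replicate 3 alone was negative, so for 21 hpf and for all 3 times only counts of calls with the block are given while all libraries are in. All 18 libraries correlated best on average with those of their own number. The block lowered the biological coefficient of variation to 0.247, against 0.398 without it.

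The members and lists were chosen with earlier results of these data known. Members were given with statistics where an adjusted p passed in either fit or where they had the smallest p of their role. The remaining ones appear with values to complete their role. The average over 15 and 18 hpf and the Cspe and Bcl-2 relative lists were added after the data or the annotation had been seen. Precision is limited by 3 libraries per group. No sequences are shown, because no genome or sequence table was at hand.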

Additional observations from a re-analysis of the deposited data

How the results depend on the processing

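Counts of members past the adjusted p of 0.05 depended on the replicate block, on the tool and on single replicates, and other size factors changed none of them. The share of all gene models past it, given after each count as background, moved with them. At 15 hpf the count of 0 was the same with the replicate block, 5 under DESeq2 with the block (background 6.26%) and 11 with the block and the 21 hpf pair of replicate 3 left out (background 15.4%). Leaving out 1 replicate gave 0 without the block and 0 to 2 with it (background 0 to 1.80%). At 18 hpf the count of 0 became 1 under DESeq2 (background 1.78%), 4 with the replicate block (background 4.07%), 13 under DESeq2 with the block (background 16.4%), and 3 without (background 1.65%) or 16 with the block (background 26.9%) when that pair was left out. Leaving out 1 replicate gave 0 without the block and 0 to 8 with it (background 0 to 6.13%). At 21 hpf the count of 0 stayed 0 with the block and under DESeq2, and became 6 with the block and that pair left out (background 10.7%), and 0 to 4 with the block on leaving out 1 replicate (background 0 to 6.67%).

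Averaged over all 3 times, the count of 0 became 5 under DESeq2 (background 7.80%), 12 with the replicate block (8 higher, 4 lower; background 21.2%), 16 under DESeq2 with the block (background 26.3%), and 13 without (background 18.3%) or 28 with the block (background 45.4%) when that pair was left out. Leaving out 1 replicate gave 0 to 6 without (background 0 to 5.79%) and 0 to 20 with the block (background 0 to 31.9%). For the average over 15 and 18 hpf the 6 became 16 with the replicate block, of which 16 were among the 19 of DESeq2 with the block (background 33.8%), 9 under DESeq2 (background 15.3%) and 5 without a filter on low counts (background 2.68%). That pair left out gave 9 without (background 12.1%) and 28 with the block (background 40.3%), and leaving out 1 replicate gave 0 to 1 and 2 to 14 (background 0 to 0.635% and 4.13 to 18.3%).

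Between 15 and 21 hpf in control embryos the 1 became 2 under DESeq2 (background 8.34%), with the replicate block (background 13.3%) or with that pair left out (background 5.46%), 4 under DESeq2 with the block (background 16.8%), and 6 with the block and that pair left out (background 18.4%). Leaving out 1 replicate gave 0 to 1 without (background 0 to 1.78%) and 0 to 3 with the block (background 2.09 to 11.6%). In ethanol embryos the 1 became 2 under DESeq2 (background 7.73%), 4 under DESeq2 with the block (background 16.6%) and 0 with no filter (background 2.18%). With that pair left out it became 0 without the block (background 2.68%) and stayed 1 with it (background 11.7%). On leaving out 1 replicate the count was 0 without (background 0.296 to 2.70%) and 0 with the block (background 4.07 to 7.23%). The cause of these changes was not tested. The rule without a count minimum finds 54 members, and with a minimum of 20 it finds 38.

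Of 432 checks of how results depend on the processing, 4 were a change of sign, in single members in the 3-time average. Trafd1 of L_var_04590 had 0.06 and ranged from -0.02 to 0.26 on leaving out 1 replicate (-0.01 without replicate 3). Trafd1 of L_var_04674 had -0.39 and ranged from -0.53 to 0.02, and Bax had -0.01 and ranged from -0.13 to 0.14. Of the other checks, 316 were scored as the same, 87 as stronger and 25 as weaker.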
